A study of Arabidopsis thaliana with 4 samples.

Results

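ATREP elements are a group of Helitron families of *Arabidopsis thaliana*, and the 8659 annotated copies described here were taken from the 31189 transposon rows of an RNA-seq count table by annotation alone, as the rows with superfamily RC/Helitron and a family name beginning with ATREP. They fell into 21 families and made up the larger part of the 12945 Helitron copies in the table. A further 661 copies with ATREP names belong to 4 families that the table places in other superfamilies of DNA transposons (ATREP16, ATREP17, ATREP18 and ATREP19), and they were left out. Helitrons are DNA transposons thought to move by rolling-circle replication, which autonomous elements support with a protein that joins a replication initiator to a helicase. ATREP elements are nonautonomous: they carry the ends of a Helitron without coding for this protein. In *Arabidopsis* tissues such elements are commonly kept silent by DNA methylation, including methylation guided by small RNAs.

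The libraries were made from whole rosettes at the 9-leaf stage, from plants kept at 4°C for 2 days in the dark and then grown on soil at 21°C with 16 h of light. The genotypes were Col-0 (wild type, 2 libraries) and *jmj26* (2 libraries), a T-DNA insertion line of *JMJ26*, which encodes a jumonji-domain protein of the family that holds histone H3 lysine 9 demethylases. The comparison asks whether loss of *JMJ26* changes the transcript counts of ATREP copies. A single insertion line stands for the mutant, and nothing states what the same-numbered libraries share, so p-values measure the spread between these libraries only. The RNA was poly(A)-selected and the kit keeps strand, although the labels give the molecule as DNA.

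Total counts, over genes and transposons, ran from 740909 (Col-0 replicate 2) and 1022041 (Col-0 replicate 1) to 1497105 (*jmj26* replicate 2) and 1998601 (*jmj26* replicate 1), so both mutant libraries were deeper. *JMJ26* itself (AT1G11950) had at most 2 counts in any library. These are too few for the genotype to be checked on the targeted gene. The rosette marker genes *RBCS1A*, *LHCB1.3* and *RCA*, which serve photosynthesis, were counted in every library, and the flower regulators *AP3*, *PI* and *AG* and the seed storage gene *CRC* were at 0 in all 4. In counts scaled to a common library total (CPM), all 3 rosette markers were higher in both mutant libraries, with *RCA* at 56.7 and 174 CPM in Col-0 against 409 and 383 in *jmj26*, *LHCB1.3* at 34.2 and 52.6 against 154 and 142, and *RBCS1A* at 86.1 and 178 against 287 and 244. The root marker *PYK10* had 52.8 and 70.2 CPM against 75.1 and 84.2. What part this has in the ATREP values was not tested. An overlapping opposite-strand neighbour is annotated for 24.9% of gene rows, and these rows held 92.4% to 95.7% of the gene counts. Which strand was counted is thus in doubt. The values of *JMJ26* and of the marker genes may therefore not be those of their own transcripts. The strand setting is not given in the sources used here and the table gives no coordinates for transposons, so whether a count of an ATREP copy comes from its own transcript or from a neighbouring gene was not tested.

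A pair of libraries stood apart in their transposon rows. In Col-0 replicate 2 the DNA transposon family ATDNA12T3_2 took 25.6% of the transposon counts, against 0.259% to 1.90% in the other 3 libraries. In *jmj26* replicate 2, whose column header carries another run number than the other 3, 40 transposon rows were at 0 although each other library predicted at least 20 counts at its depth. Among them were 10 of the 124 ATREP copies with that expectation (8.06%, against 6.93% of the 577 transposon rows and none of the 3125 gene rows). Replicates were not duplicates: the chi-square per ATREP copy was 2.00 between the Col-0 libraries and 9.40 between the *jmj26* libraries, where sampling noise gives about 1. Between libraries of different genotypes it was 5.48 to 12.0, a range that holds the value of the *jmj26* pair. The measure rises with depth where copies vary beyond sampling noise. As the *jmj26* libraries were deeper, the values of 2.00 and 9.40 are not directly comparable.

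Most ATREP copies had no count in either genotype. Of all members, 6426 (74.2%) had no count in any library, 8300 (95.9%) never exceeded 3 counts, and 117 had at least 10 counts in every library. A count was found in 2233 copies, 275 of them in all 4 libraries. Copies with at least 1 count numbered 873 and 798 in Col-0 against 1234 and 974 in *jmj26*, which follows the order of depth. With every library thinned to 740909 counts, the expected numbers were 730.3 and 798 in Col-0 against 702 and 673 in *jmj26*. At matched depth both mutant libraries thus lay below both wild-type libraries, with means of 764 ± 47.9 (SD, n = 2) in Col-0 and 688 ± 20.2 (SD, n = 2) in *jmj26*. The difference of -76.5 copies had p = 0.333 in a two-sided exact permutation test, the smallest value that 2 against 2 libraries allow. This separation was lost in other settings at matched depth. Thinned to the same number of transposon counts, the libraries had 825 and 798 copies in Col-0 against 801 and 747 in *jmj26* (difference -37.1, exact permutation p = 0.667). That number, 160845, is the transposon total of Col-0 replicate 2, of which ATDNA12T3_2 took 25.6%. The overlap in this setting rests on the 798 of that library against 801 in *jmj26* replicate 1. Copies with at least 3 counts, thinned to all counts, numbered 244 and 229 against 226 and 232 (difference -7.26, exact permutation p = 0.667). With thinning to all counts, the same order held for the other transposons, of which 9.54% and 10.5% were counted in Col-0 and 9.30% and 9.08% in *jmj26* after thinning, against 8.43%, 9.22%, 8.11% and 7.78% of ATREP copies.

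**Figure D1:**
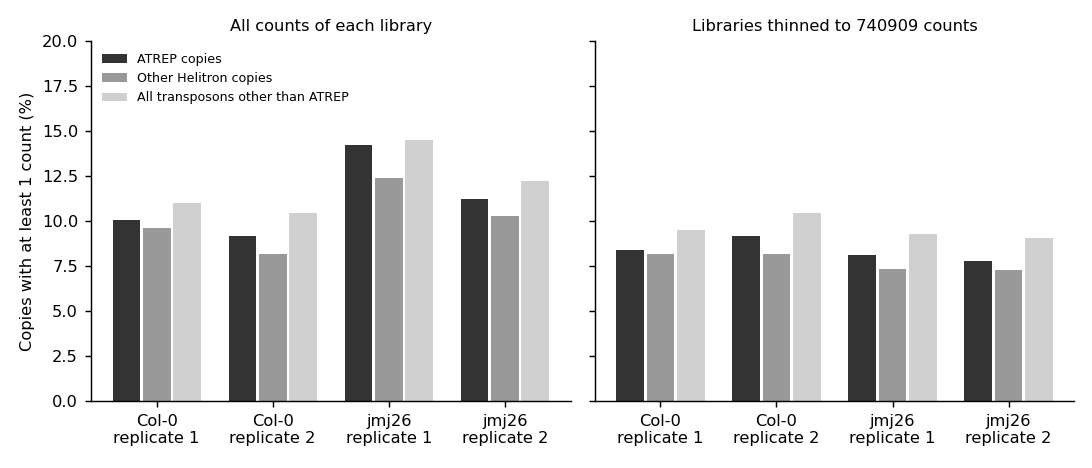
Share of ATREP copies, other Helitron copies and all transposons other than ATREP with at least 1 count (percent, y axis) in each of the 4 libraries (x axis), as deposited and with libraries thinned to the same total. Before thinning the *jmj26* libraries are higher (14.3% and 11.2% of ATREP copies), and after thinning they are lower (8.11% and 7.78%) than the Col-0 libraries (8.43% and 9.22%).

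ATREP copies seen in a single genotype had few counts. Of the 2233 counted copies, 721 had a count in both genotypes, 560 in Col-0 only and 952 in *jmj26* only, the deeper pair. Copies with counts in both libraries of a single genotype numbered 39 for Col-0 and 141 for *jmj26*. The largest sum among Col-0-only copies was 9 counts. At least 10 summed counts in a single genotype were found for 7 copies, all of them in *jmj26*. None of these numbers is scaled for depth, so the limits are more easily reached in the deeper *jmj26* pair. The same numbers over all transposon rows were not taken, so they are not read as a difference between genotypes. AT2TE25440 (ATREP3) had 7 and 16 counts in the *jmj26* libraries and 0 in Col-0, and AT5TE50235 (ATREP1) had 8 and 5. Of the other 5, AT3TE64495 and AT3TE94450 (both ATREP10D) had 2 and 14 and 1 and 13 counts, AT3TE64460 (ATREP11) had 9 and 1, AT5TE34440 (ATREP1) had 0 and 10, and AT5TE27865 (ATREP11) had 0 and 50. In these 5 copies a single *jmj26* library held most of the counts.

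ATREP copies took a small and similar share of the counts in both genotypes. They held 26973 and 18629 counts in the wild type, against 50264 and 34739 in the mutant. As a share of all counts this was 2.64% (95% Wilson interval 2.61 to 2.67) and 2.51% (2.48 to 2.55) in Col-0, and 2.51% (2.49 to 2.54) and 2.32% (2.30 to 2.34) in *jmj26*. Col-0 replicate 2 and *jmj26* replicate 1 differed by less than their intervals, so the genotypes overlapped, with means of 2.58% ± 0.0882 and 2.42% ± 0.138 (SD, n = 2 each, p = 0.667, two-sided exact permutation test). Without the copy with the most counts the shares were 2.42% and 2.30% in Col-0 against 2.27% and 2.11% in *jmj26*, and without the 10 copies with the most counts they were 1.44% and 1.37% against 1.34% and 1.22%. Both mutant libraries were then below both wild-type libraries (exact permutation p = 0.333 each). As a share of transposon counts, ATREP copies held 15.1% and 11.6% in Col-0 against 14.6% and 13.0% in *jmj26*, a difference of +0.454 percentage points (p = 1, same exact permutation test). The lowest value was that of Col-0 replicate 2, the library with the many ATDNA12T3_2 counts. Without that family in the denominator, a setting added after seeing the data, the shares were 15.2%, 15.6%, 14.9% and 13.0%, and the difference turned to -1.41 points (exact permutation p = 0.333). Among Helitron counts alone, ATREP copies held 74.7% and 74.9% in Col-0 against 74.9% and 71.8% in *jmj26* (exact permutation p = 0.667). The 10 copies at 0 in *jmj26* replicate 2, the library with the lowest share on 3 of these scales, held 2.18% to 2.38% of the ATREP counts of the other libraries.

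ATREP15, ATREP10D and ATREP3 carried most ATREP counts in both genotypes. ATREP15 held 24.7% ± 0.0181 of the ATREP counts in Col-0 and 22.7% ± 1.56 in *jmj26* (SD, n = 2 each), from 1003 copies that are 11.6% of the members. Within *jmj26*, replicate 2 had the lower ATREP15 share, 21.6% against 23.8% in replicate 1. ATREP10D held 21.3% ± 0.0891 and 21.8% ± 0.409 from 15.0% of the copies, and ATREP3 held 19.4% ± 0.487 and 21.1% ± 2.04 from 16.6%. Together these families held 65.3% of the counts in Col-0 and 65.6% in *jmj26* and 43.2% of the copies. In ATREP10A, a small family, 279 copies (3.22%) gave 9.44% and 9.78% of the counts. Families of many copies could also be low, as ATREP10B with 491 copies gave 1.28% of the counts in Col-0. Every family had counted copies, from 10.6% of the copies in ATREP10C to 31.8% in ATREP12, while 9 families held under 1% of the counts each in Col-0.

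**Figure D2:**
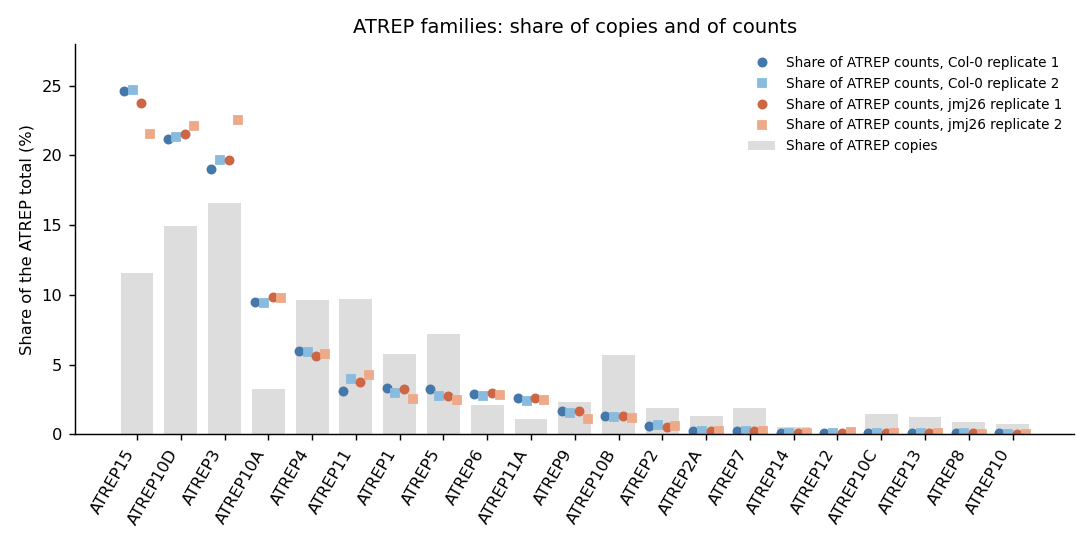
Share of the ATREP counts held by each family (percent) in each of the 4 libraries, with the family's share of the 8659 copies beside it. ATREP15, ATREP10D, ATREP3 and ATREP10A lead in both genotypes, and *jmj26* replicate 2 lies apart from the other points in ATREP15 (21.6%) and ATREP3 (22.6%).

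Few copies gave most ATREP counts. The top 10 copies held 45.4% and 45.5% of the ATREP counts in Col-0 against 46.6% and 48.0% in *jmj26*, and 90% of the counts lay in 86 to 90 copies. AT1TE83640 gave 74.2% to 80.4% of the ATREP10A counts, and AT2TE43070 gave 33.9% and 34.4% of the ATREP15 counts in Col-0 against 40.9% and 42.5% in *jmj26*. AT3TE92720 gave 18.0% to 31.0% of the ATREP3 counts, highest in *jmj26* replicate 2. These are counts per copy and not levels per length, since the table gives no lengths. They come from rows to which reads that fit several copies may have been divided.

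AT2TE43070 was the copy with the most counts, with 2255 and 1584 in the wild type against 4882 and 3185 in the mutant, or 2206, 2138, 2443 and 2127 CPM. Its CPM overlapped between the genotypes, and its log2 fold change was 0.04. AT1TE83640, the second, had 1971 and 1864 CPM in the wild type against 1834 and 1818 in the mutant, with a log2 fold change of -0.10. AT3TE92720 had 901 and 1028 CPM in the wild type against 1078 and 1622 in the mutant. Its mutant values were above its wild-type values on this scale and overlapped them after TMM scaling, and its log2 fold change of 0.45 (SE 0.23) had a Benjamini-Hochberg adjusted p of 0.540 in edgeR's quasi-likelihood test. Below it, AT1TE31775, AT4TE35205 and AT3TE70135 had log2 fold changes of -0.30, -0.32 and -0.44. No copy among the 10 with the most counts passed the test.

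**Figure D3:**
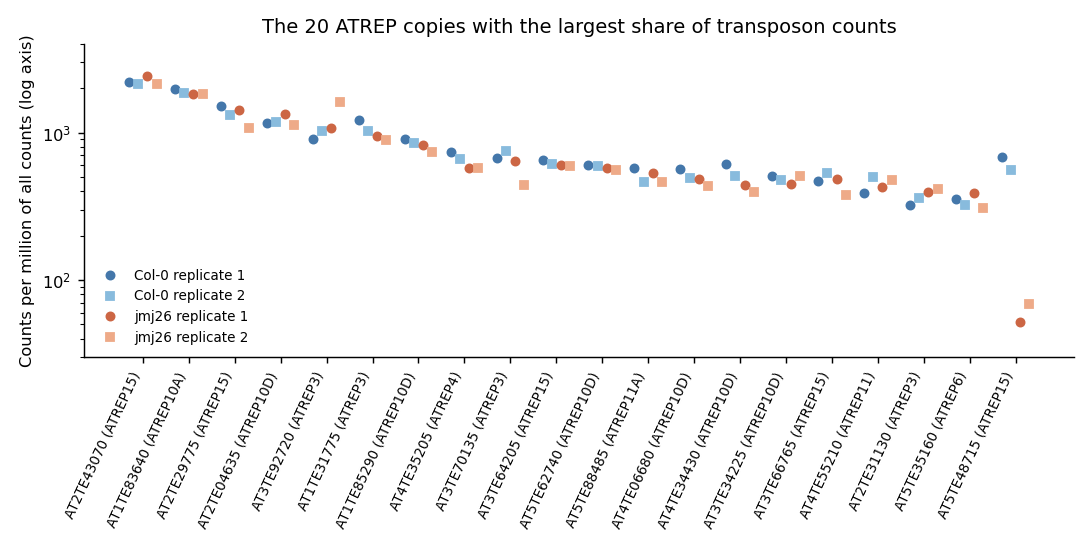
CPM (y axis, log scale) of the 20 ATREP copies with the most counts in the 2 Col-0 and 2 *jmj26* libraries (point shapes and colours). AT2TE43070 lies at 2127 to 2443 CPM and AT3TE92720 at 901 to 1622, and the last copy, AT5TE48715, has 561 and 686 in Col-0 against 52.0 and 68.8 in *jmj26*.

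ATREP copies lie on all 5 chromosomes, and so did the counts. By the chromosome digit of the identifier, 2147, 1584, 1612, 1350 and 1966 copies lie on chromosomes 1 to 5. The share of copies with a count was 24.0% on chromosome 2 to 27.3% on chromosome 5. In Col-0 the chromosomes held 22.7%, 25.1%, 16.2%, 14.9% and 21.0% of the ATREP counts, and in *jmj26* 22.7%, 26.6%, 17.4%, 14.2% and 19.0%. For chromosomes 2 and 5 the libraries of the genotypes did not overlap (p = 0.333 each, two-sided exact permutation test, the smallest possible). Without copy AT5TE48715, described below, both overlapped. Chromosome 5 then held 19.4% and 18.8% in Col-0 against 19.8% and 17.8% in *jmj26* (exact permutation p = 1), and chromosome 2 held 25.5% and 26.0% against 27.7% and 25.7% (exact permutation p = 0.667), a setting added after seeing the data. The 10 copies with the most counts lie on chromosomes 1 to 4 and do not include AT5TE48715. Leaving them out thus raises the share of chromosome 5 by the choice of copies, to 38.5% in Col-0 and 35.9% in *jmj26*.

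Identifiers are numbered along each chromosome, so their order gives a rough position. The identifiers of each chromosome were cut into 10 bins of equal size. ATREP copies were 34.9% of the transposon rows in bin 1 and 36.8% in bin 10, against 10.7% in bin 5. Of the ATREP copies in these bins, 32.5%, 35.5% and 11.6% were counted. Copies in the middle of the order were thus both fewer and less often counted. The counted share over all transposon rows of each bin was not taken, so this is not read as particular to ATREP copies. Bin 6 held 3.70% and 3.37% of the ATREP counts in Col-0 against 1.29% and 1.50% in *jmj26*, and without AT5TE48715 it held 1.10%, 1.14%, 1.08% and 1.20%.

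A single ATREP copy differed between the genotypes past the threshold, and it was lower in *jmj26*. Of the 8659 copies, 166 from 18 families passed edgeR's filter on low counts and 8493 did not. The tested copies held 94.6% to 95.7% of the ATREP counts. In edgeR's quasi-likelihood test, 1 of 166 (0.602%) had FDR < 0.05, against 0.0823% of all 6078 rows and 0.355% of the 846 transposon rows tested (for lower rows alone, 0.0494% and 0.236%). Without adjustment 13 copies (7.83%) had p below 0.05, against 12.7% of all rows and 8.04% of transposon rows. Of these 13, 5 were higher (10.9% of all rows, 3.43% of transposon rows) and 8 were lower (1.78% and 4.61%). After TMM scaling, both *jmj26* libraries were above both Col-0 libraries in 20 copies (12% against 25.2% of all rows and 12.9% of transposon rows) and below them in 39 (23.5% against 18.3% and 20.4%). The median log2 fold change was -0.08 over ATREP copies and -0.08 over transposon rows, and 0.01 over all rows. The quartiles of the ATREP copies were -0.32 and 0.18. The medians of ATREP copies and of transposon rows were thus the same to 2 decimals.

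**Figure D4:**
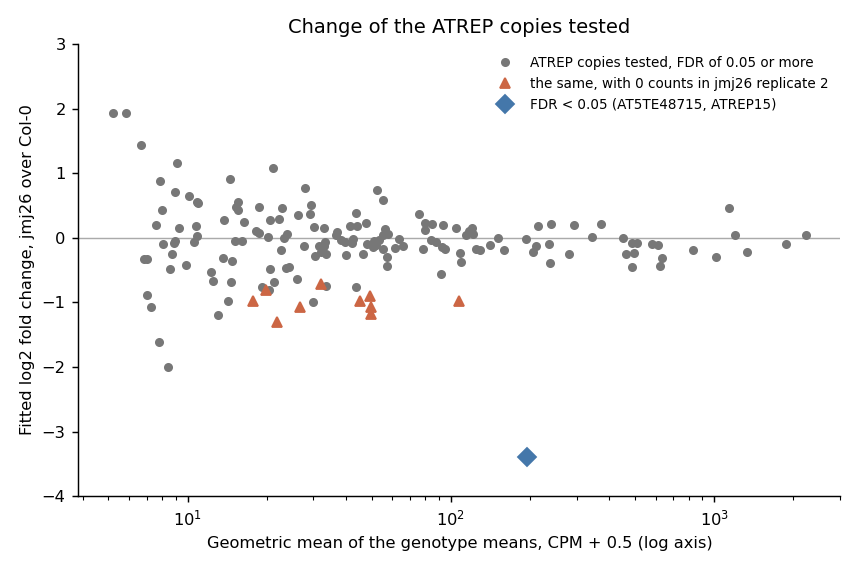
Log2 fold change of *jmj26* over Col-0 (y axis) against the geometric mean of the genotype means, as CPM + 0.5 (x axis, log scale), for the 166 ATREP copies tested. Triangles mark the copies at 0 counts in *jmj26* replicate 2, and AT5TE48715 (diamond), at -3.40, is the single ATREP copy past FDR < 0.05, and most others lie between -1 and 1.

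AT5TE48715, an ATREP15 copy on chromosome 5, had 701 and 416 counts in the wild type against 104 and 103 in the deeper mutant libraries, which is 686 and 561 CPM against 52.0 and 68.8. The genotypes did not overlap, and the copy was 10.5-fold lower in *jmj26* (log2 fold change -3.40, SE 0.21, Benjamini-Hochberg adjusted p = 0.0150 over all rows in edgeR's quasi-likelihood test). It stood above the floor of 3 counts in every library, so it was lower but still counted in the mutant. Over the 16 alternatives its log2 fold change lay between -3.62 and -3.21 and its adjusted p between 2.27e-47 and 0.188. The call was lost in 5 of these, among them those in which Col-0 replicate 1 (adjusted p = 0.0838), Col-0 replicate 2 (0.0571) or *jmj26* replicate 2 (0.188) was left out and that in which transposon rows were fitted without genes (0.143). The transposon with the next identifier, AT5TE48720 of the Helitron family HELITRONY1E, had 121 and 43 counts in the wild type against 12 and 24 in the mutant. It was also lower in both mutant libraries (log2 fold change -3.07, SE 0.54) with an adjusted p of 0.255 in the same test. The next identifiers on either side, AT5TE48705, AT5TE48710 and AT5TE48725, had at most 1 count in any library. Neither row's overlap with a gene was tested.

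The other copies with the smallest p-values did not pass the adjustment. AT3TE69355 (ATREP9) had 17 and 11 counts in the wild type against 10 and 4 in the mutant (log2 fold change -2.00, SE 0.42, adjusted p = 0.255 in edgeR's quasi-likelihood test). AT3TE69365 (ATREP6), close to it in the order of identifiers, had 14 and 8 against 5 and 9 (-1.62, adjusted p = 0.299). Both pairs of values are small. AT5TE82670 (ATREP15) had 41 and 31 counts against 45 and 29 in the deeper libraries, a log2 fold change of -0.99 with an adjusted p of 0.255. On the higher side, AT4TE34700 (ATREP10D) had 2 and 2 counts in the wild type against 19 and 13 in the mutant (1.94, adjusted p = 0.263). Both Col-0 values of AT4TE34700 are under the floor of 3 counts, so the fitted value rests on few counts. AT2TE29890 and AT4TE11705, also ATREP10D copies, had log2 fold changes of 0.77 and 1.16, and AT1TE67465 (ATREP5) had 0.58, with adjusted p from 0.296 to 0.351. AT4TE34430 (ATREP10D) and AT4TE06880 (ATREP3) had -0.45 and -0.56, with adjusted p of 0.306 and 0.342. ATREP10D thus supplied both higher and lower copies among them.

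No ATREP family passed the test when the counts of its copies were summed, a sum that is less affected by how reads are divided among copies. In edgeR's quasi-likelihood test 0 of 21 families had FDR < 0.05, against 0.0552% of the 5435 rows tested and 0% of the 203 transposon families. DESeq2 and edgeR's exact test also gave 0 of 21, and they called 9 and 380 of all 5435 rows. Without adjustment 1 family had p below 0.05 (against 14.8% of all rows and 6.4% of transposon families), ATREP10, with 15 and 9 counts in the wild type against 16 and 11 in the mutant (log2 fold change -0.84, SE 0.34, adjusted p = 0.325). The fitted log2 fold change was below 0 in 19 of 21 families, against 64.5% of the 203 families and 48.4% of all rows, and the medians were -0.15 and -0.09. Under other scalings this count changed, to 17 of 21 with library totals or upper quartile normalization and to 14 of 21 with family rows fitted without genes. After TMM scaling, both *jmj26* libraries were below both Col-0 libraries in 10 families (47.6%, against 25.6% of transposon families and 18.2% of all rows). The sums include the 10 copies at 0 in *jmj26* replicate 2, described below. With that library left out, the median was -0.09 over ATREP families and -0.13 over transposon families, and 19 of 21 ATREP families were below 0. ATREP15 had a log2 fold change of -0.24 (SE 0.14, adjusted p = 0.522), and without AT5TE48715 it had -0.11, a value added after seeing the data. ATREP3 had -0.0012 (SE 0.12), and ATREP11 and ATREP12 were the families above 0, at 0.05 and 0.14.

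The 10 ATREP copies at 0 in *jmj26* replicate 2 were counted well in the other *jmj26* library. AT5TE96835 (ATREP1) had 161 and 104 wild-type counts, 304 in *jmj26* replicate 1 and 0 in replicate 2. AT2TE56855 and AT3TE34970 (both ATREP5) had 54 and 60, and 83 and 46 counts in Col-0, with 142 and 135 in *jmj26* replicate 1. These 3 copies show the split within the mutant, not between genotypes. AT2TE02800 (ATREP15) and AT4TE10265 (ATREP4) had 127 and 130 counts in *jmj26* replicate 1, and AT4TE40670 (ATREP10B), AT5TE34445 and AT5TE77735 (both ATREP4), AT5TE44605 (ATREP9) and AT1TE69995 (ATREP15) had 48 to 98. Summed, the 10 copies had 643, 406, 1166 and 0 counts, and no copy had p below 0.284 in edgeR's quasi-likelihood test. With *jmj26* replicate 1 left out, their log2 fold changes lay between -10.4 (AT5TE96835) and -7.78 (AT1TE69995). Replicate 2 is then the only mutant library and the spread comes from Col-0 alone. These 10 values thus follow from how the copies were chosen and carry no further evidence. The reverse was seen in AT5TE27865 (ATREP11), with 50 counts in *jmj26* replicate 2 and 0 elsewhere, and in AT1TE76615 (ATREP10D), with 27 counts there and 1 to 3 elsewhere. Whether the other run, the plants or the counting go with this was not tested.

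**Figure D5:**
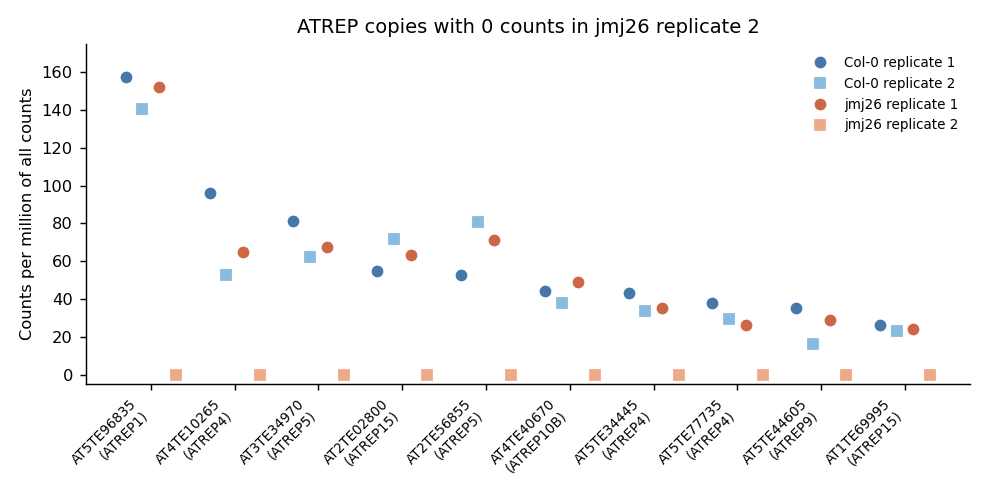
CPM (y axis) of the 10 ATREP copies at 0 in *jmj26* replicate 2 in each of the 4 libraries (point shapes). All 10 are at 0 in *jmj26* replicate 2, while in the 3 other libraries their points, which stand for 12 to 304 counts, lie above 0.

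Genes that set, keep or remove silencing marks at such elements could hardly be read in these libraries. Of 21 listed genes, which include the DNA methyltransferases *MET1*, *CMT2*, *CMT3* and *DRM2*, the polymerase subunits *NRPD1* and *NRPE1* of the small-RNA pathway, the remodeller *DDM1* and the demethylases *ROS1* (of DNA) and *IBM1* (of histone H3 lysine 9), 9 had at most 3 counts in every library and the highest value was 65. Their summed counts, not scaled for depth, were 47 and 38 in Col-0 against 160 and 101 in the deeper *jmj26* libraries. Which strand was counted is in doubt, so the counts of these gene rows may not be those of the genes' own transcripts. Only *MSI1*, a histone chaperone subunit, passed the filter, with 24 and 19 counts in the wild type against 65 and 31 in the mutant (log2 fold change 0.10, SE 0.31, adjusted p = 0.956 in edgeR's quasi-likelihood test). The other 20 genes were not tested, so the list gives 0 calls from 1 gene tested, against 0.0823% of all rows.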

How the data were processed

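Read counts per gene and per transposon copy were used as the authors deposited them, as TEcount tables without normalization, 1 per library. Per the labels and methods, reads were trimmed and aligned with STAR 2.7 allowing multiple hits. The TEcount version, its mode and the strand setting are not given in the sources used here. Genotypes and replicate numbers came from sample titles. The members and lists were chosen with earlier results of these data known.

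Counts were tested in R 4.3.3 with edgeR 4.0.16 (filterByExpr, TMM, estimateDisp, glmQLFit with legacy = TRUE, glmQLFTest), genes and copies together, with Benjamini-Hochberg adjustment over all 6078 rows and a threshold of 0.05. Family sums were tested likewise. Standard errors were taken as log2 fold change over the root of the F statistic. The coefficient of biological variation was 24.4% for copies and 18.6% for families. Shares and thinned numbers (the hypergeometric expectation) were compared by exact permutation with scipy 1.17.1. Intervals and the floor of 3 counts (1.50 to 4.05 CPM) cover counting error only. On simulated counts with 200 rows changed by a log2 fold of 2, the procedure recovered 79% of them and made 8 false calls. DESeq2 1.42.0 was an alternative, beside other filters, scalings, edgeR tests, left-out libraries and a replicate block.

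The copies named are the 10 with the largest mean share of transposon counts (given as those with the most counts), the one called and the 10 with the smallest p, and those with at least 10 counts in a single genotype. The copies at 0 in a single library, the neighbours of AT5TE48715 and the bins of identifiers were chosen after seeing the data.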

Additional observations from a re-analysis of the deposited data

How the results depend on the processing

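The number of ATREP copies with FDR < 0.05 was 1, with 0 higher and 1 lower. It was 15 with no filter on low counts (3 higher, 12 lower), 2 with edgeR's exact test (2 lower), and 0 (0 lower) with transposon rows only and with the replicate block. With no filter, 15 of 2233 ATREP copies stood against 608 of all 30020 rows. With the exact test, 2 of 166 stood against 301 of all 6078 rows. Leaving out a library gave 0 to 12 (0 to 1 higher, 0 to 11 lower), with 12 without *jmj26* replicate 1, where the lone mutant library is assumed to vary like Col-0, and 0 without any of the other 3. The second copy of the exact test was AT3TE69355 (adjusted p = 0.00337, and 0.00775 with no filter). Copies with unadjusted p below 0.05 numbered 13, against 82 with no filter, 7 with DESeq2, 5 with transposon rows only and 8 to 41 with a library left out. The median log2 fold change of -0.08 became 0.047 with no filter, where that over all rows was 0.47, and -0.19 to -0.064 with a library left out. The difference in the share of transposon counts, +0.454 points, was -1.41 without family ATDNA12T3_2, -1.32 without Col-0 replicate 2 and -0.361 without *jmj26* replicate 1, and it ranged from -1.32 to 2.23 over the fits with a library left out. The difference in the share of all counts ranged from -0.256 to -0.0618 with a library left out, and was -0.170 without the top copy and -0.127 without the top 10. The difference in detected copies of -76.5 was 268.5 without thinning, -37.1 when thinned to transposon counts, -7.26 for copies with at least 3 counts and -110 to -42.6 with a library left out. Of the families, 0 passed in all 17 alternatives. For results without a value shown that moves with them, the cause was not tested.

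The replicate numbers come from the labels alone. Across the rows tested, the deviations that libraries of the same number show from the mean of their genotype correlated at -0.09, and across ATREP copies at -0.02, so the numbers were not taken as pairs. With the block, AT5TE48715 had an adjusted p of 0.0552 and no ATREP copy was called.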
